A study of Mus musculus with 4 samples.

Results

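Lymphoid tissue inducer (LTi) cells are recognised by a small set of surface proteins, and the RNA of 6 of them is described here: Cd4, Kit, Nrp1, Thy1, Ccr6 and Cxcr5. They were chosen by name, as surface genes that define LTi cells and their CD4+ subset, and all 6 were found among the 27179 genes of the table. All 6 also passed the filter on low reads that left 14241 genes for the test. The RNA came from sorted LTi cells of the small intestine lamina propria of C57BL/6 mice, with 2 control libraries (Gata3+/+) and 2 Gata3-KO libraries (Gata3fl/fl with VavCre). In all 4 libraries the sort kept live lineage-negative cells with CD127 and CCR6 and without KLRG1, NK1.1 and NKp46, so CCR6 protein was itself a gate. Vav drives Cre in blood cells of all lineages, so the deletion of floxed Gata3 is not limited to LTi cells. The labels do not say whether control mice carried VavCre, how old the mice were, or whether the replicates came from separate animals, so p-values measure only the spread between these libraries, which may be technical.

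LTi cells are innate lymphoid cells that make lymphotoxin, with which they start the formation of lymph nodes and Peyer's patches and, after birth, of cryptopatches and isolated lymphoid follicles in the gut wall. CCR6 and CXCR5 are chemokine receptors that read CCL20 and CXCL13 at these sites, KIT is the receptor tyrosine kinase for stem cell factor, and CD4 is carried by only some mouse LTi cells. NRP1 is a co-receptor for class 3 semaphorins and VEGF, and THY1 is a small glycoprotein held in the membrane by a GPI anchor.

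The libraries held between 12670034 and 24315878 reads, as estimated from the deposited values. By these totals the Gata3-KO libraries were 1.79 times as deep on average. Levels are in RPKM (reads scaled to gene length and to the library total), which can be compared between genes, and differences are in log2(RPKM + 1), Gata3-KO minus control. On this deposited scale the median tested gene lay 0.43 log2 units higher in Gata3-KO, and 0.05 higher after median-ratio scaling, which sets libraries to a common typical gene. Both scales are therefore given. Gata3 itself stood at 84.3 and 50.7 RPKM in control, against 34.5 and 23.3 RPKM in Gata3-KO libraries, without passing the test (adjusted p = 0.09 in limma). All 10 genes listed as LTi markers had reads in every library.

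Promoter sequences of RefSeq (GRCm38.p6) were matched for Kit, Nrp1 and Ccr6, and not for Cd4, Thy1 and Cxcr5. Because Gata3 was the gene deleted, windows of 300 bases (250 before to 50 after a start site) were searched on both strands for GATA hexamers, which were AGATAA with its variant ending in G (AGATAG), and the same pair beginning with T (TGATAA with its variant TGATAG). A match was present in 1 of the 5 windows of these members, at the second annotated start of Ccr6, 70 bases before it, against 29.8% of all 32851 windows. Kit had a second window, 75574741 to 75575040, that overlaps its first and is not shown. The first window of Kit (chromosome 5: 75574737 to 75575036, plus strand) and those of both starts of Ccr6 (chromosome 17: 8235793 to 8236092 and 8242276 to 8242575, plus strand) are shown to set the window with the match, in capitals, beside those without. A match is a description of letters and not a binding site.
Kit, first start: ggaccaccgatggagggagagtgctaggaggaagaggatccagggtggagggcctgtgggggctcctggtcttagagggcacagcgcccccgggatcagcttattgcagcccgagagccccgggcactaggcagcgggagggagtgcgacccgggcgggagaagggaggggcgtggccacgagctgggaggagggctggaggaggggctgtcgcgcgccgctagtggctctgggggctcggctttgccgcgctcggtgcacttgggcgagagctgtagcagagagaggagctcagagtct
Ccr6, first start: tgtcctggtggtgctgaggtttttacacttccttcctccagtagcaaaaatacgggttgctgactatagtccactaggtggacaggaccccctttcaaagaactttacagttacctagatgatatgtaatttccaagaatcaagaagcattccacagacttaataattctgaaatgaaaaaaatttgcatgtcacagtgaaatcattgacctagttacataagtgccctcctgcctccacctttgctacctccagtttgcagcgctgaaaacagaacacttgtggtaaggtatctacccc
Ccr6, second start: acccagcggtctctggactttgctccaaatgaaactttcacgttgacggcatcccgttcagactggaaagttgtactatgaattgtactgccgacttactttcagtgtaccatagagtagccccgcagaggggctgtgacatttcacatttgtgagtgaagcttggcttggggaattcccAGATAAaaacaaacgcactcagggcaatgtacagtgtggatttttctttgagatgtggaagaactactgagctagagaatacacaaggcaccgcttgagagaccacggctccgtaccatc

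**Figure D1:**
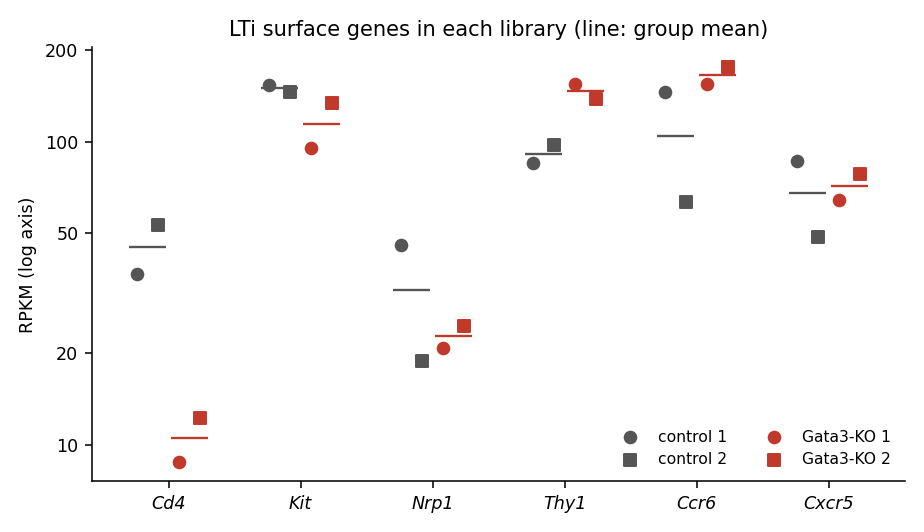
RPKM (log axis) of the 6 surface genes, with a point for each of the 2 control and 2 Gata3-KO libraries and a line at each group mean. Cd4 shows the widest gap between genotypes, from at least 36.5 RPKM in control to at most 12.3 RPKM in Gata3-KO libraries, while the groups of Nrp1 and Cxcr5 overlap.

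Cd4 fell in the Gata3-KO libraries and was the 1 member of the 6 that passed the test, where 9.04% of all tested genes passed in either direction and 0.688% passed as lower. Cd4 (chromosome 6: 124864693 to 124888247) codes for the co-receptor that binds MHC class II and brings the kinase LCK to the T cell receptor, and in LTi cells it is present without a T cell receptor. It stood at 36.5 and 53.0 RPKM in control, against 8.80 and 12.3 RPKM in Gata3-KO libraries, from 1613 and 2080 against 662 and 910 reads. Both Gata3-KO libraries lay below both control libraries, and the higher library exceeded the lower 1.45-fold in control and 1.39-fold in Gata3-KO. The group means differed 4.25-fold. The log2 difference was −1.98 ± 0.32 (SE, 95% interval −2.76 to −1.20, n = 2 per genotype, adjusted p = 0.0253 in limma), and only 0.414% of tested genes had a lower one.

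After median-ratio scaling Cd4 remained called, at −2.54 ± 0.32 (adjusted p = 0.0481 in limma), where 1.07% of tested genes were called in either direction and 0.435% as lower. It was no longer called with a replicate block added to that scaling (adjusted p = 0.0837 in limma), without a filter on the deposited scale (adjusted p = 0.095), or with any 1 of the 4 libraries left out, on either scale (adjusted p of 0.0587 to 0.407). In bulk RNA a smaller share of CD4+ cells and less Cd4 RNA per cell cannot be told apart.

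**Figure D2:**
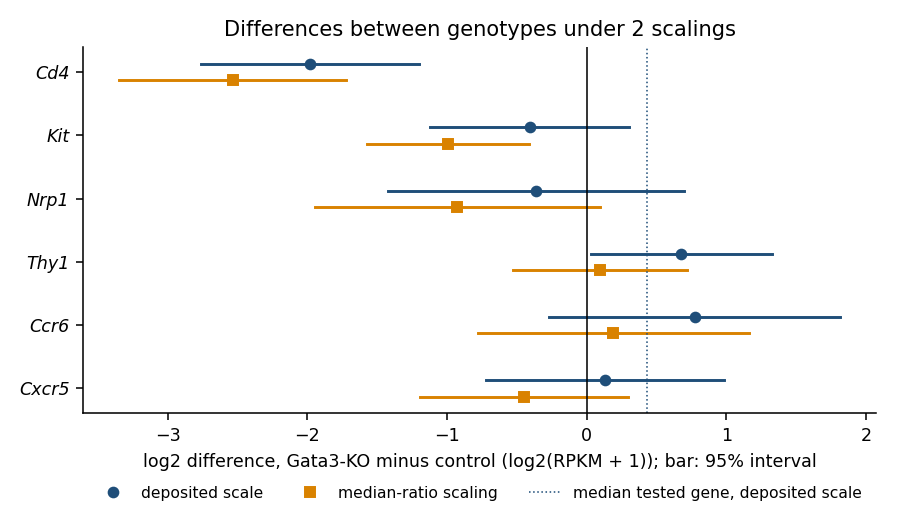
The log2 difference between genotypes (Gata3-KO minus control) of each member with its 95% interval from limma, on the deposited scale (circles) and after median-ratio scaling (squares). The dotted line marks the median tested gene on the deposited scale, at 0.43, and on both scales the interval of Cd4 lies wholly below 0 (−2.76 to −1.20 and −3.35 to −1.72).

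The rank of Cd4 among genes and its ratio to other members need no scaling between libraries. Cd4 ranked at percentile 90.0 and 93.9 of the tested genes in the control libraries and at percentile 61.3 and 66.7 in the Gata3-KO libraries. Kit stayed between percentile 95.2 and 97.9 in all 4 libraries and Thy1 between 95.6 and 97.1. The ratio of Cd4 to Kit was 0.236 and 0.363 in control and 0.0924 and 0.0916 in Gata3-KO libraries. The ratio of Cd4 to Thy1 was 0.429 and 0.543 in control and 0.0568 and 0.0886 in Gata3-KO libraries, and that of Cd4 to Ccr6 was 0.25 and 0.837 against 0.0568 and 0.0696. Cd4 was thus lower in relation to each of the 5 other members in both Gata3-KO libraries than in both control libraries. In relation to Il7r, the gene of the CD127 gate, the groups overlapped, at 0.255 and 0.684 against 0.144 and 0.268. With 2 libraries against 2 an exact permutation test cannot give a two-sided p below 0.333, so these ratios were not tested.

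**Figure D3:**
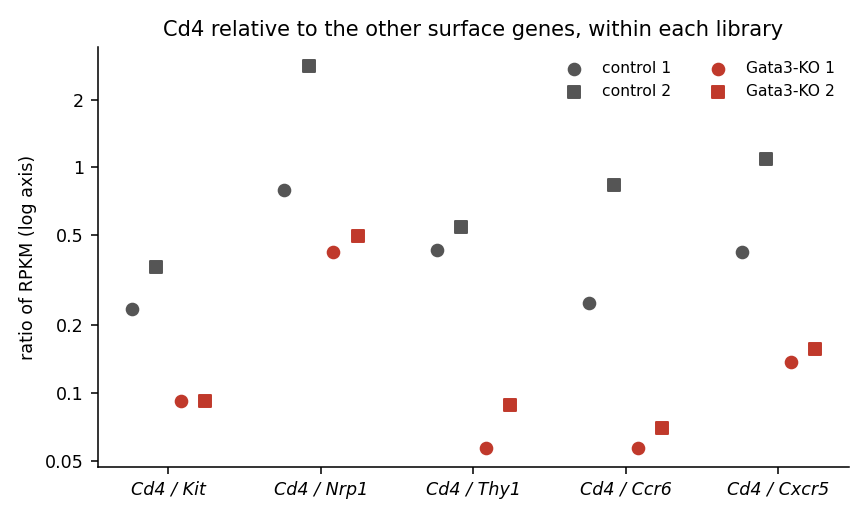
Ratio of the RPKM of Cd4 to that of each other member (log axis), computed within each library. For each of the 5 ratios both Gata3-KO libraries lie below both control libraries, most widely separated for Thy1, where the control ratios are 0.429 and 0.543 and the highest Gata3-KO ratio is 0.0886.

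Kit, the stem cell factor receptor of LTi cells, progenitors and mast cells (chromosome 5: 75574987 to 75656722), was the highest member in both control libraries. It stood at 154 and 146 RPKM in control, against 95.2 and 134 RPKM in Gata3-KO libraries, on 9607 to 16642 reads. Both Gata3-KO libraries lay below both control libraries, as did 7.58% of all tested genes. The log2 difference of −0.41 ± 0.29 did not pass (95% interval −1.12 to 0.30, adjusted p = 0.39 in limma), so the data allow anything from a fall to less than 0.5 of the control level to a small rise. After median-ratio scaling Kit lay at −0.99 ± 0.23 (95% interval −1.57 to −0.41), which did not pass either (adjusted p = 0.0955 in limma), and the libraries stood at 179 and 189.7 against 81.4 and 104 scaled RPKM. Of 15 markers listed for mast cells and progenitors, which also carry KIT, 7 had no reads in any library. These were Fcer1a, Ms4a2, Cma1, Tpsb2, Tpsab1, Gata2 and Epx. The list includes eosinophil genes (Prg2 and Epx), so its sum does not measure Kit-bearing cells alone. Mcpt1 and Mcpt2 had no reads in control but had reads in at least 1 Gata3-KO library. Of 4 tested markers 1 was called higher and none lower, where 8.35% of all tested genes were called higher (none of the 4 after median-ratio scaling). The 15 markers summed to 5.70 to 11.1 RPKM in control and to 51.8 to 104 RPKM in Gata3-KO libraries. The Gata3-KO sums came chiefly from Prg2, a granule protein of eosinophils, at 101 and 41.2 RPKM, while Epx, eosinophil peroxidase, was at 0. The part of such cells in the level of Kit was not tested.

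Nrp1 (chromosome 8: 128358591 to 128505476) varied most within the control group. It stood at 45.7 and 18.9 RPKM in control, against 20.9 and 24.7 RPKM in Gata3-KO libraries, so the groups overlapped and control replicate 1 alone was high. The 2 control libraries differed 2.42-fold, on 3869 and 1417 reads, for which counting error is 1.61% and 2.66%. The log2 difference of −0.36 ± 0.44 did not pass (95% interval −1.42 to 0.70, adjusted p = 0.617 in limma). Without control replicate 1 it was 0.25 and without control replicate 2 it was −0.98. After median-ratio scaling both Gata3-KO libraries lay below both control libraries, as did 25.2% of all tested genes, at −0.93 ± 0.40 (adjusted p = 0.255 in limma).

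Thy1 (chromosome 9: 44043384 to 44048579), carried by T cells and by innate lymphoid cells alike, stood at 84.9 and 97.6 RPKM in control, against 155 and 138 RPKM in Gata3-KO libraries. Both Gata3-KO libraries lay above both control libraries, which was the case for 53.9% of all tested genes. The log2 difference of 0.68 ± 0.27 did not pass (95% interval 0.03 to 1.33, adjusted p = 0.15 in limma) and lay 0.24 above the median gene. After median-ratio scaling it was 0.10 ± 0.24 (95% interval −0.53 to 0.72) and the groups overlapped. T cell markers were higher in the same libraries: 7 of 22 tested markers rose, where 8.35% of all tested genes were called higher (1 of 22 and 0.639% after median-ratio scaling), and the 23 markers summed to 268 to 386 RPKM in control and 656 to 1273 RPKM in Gata3-KO libraries. Their part in the level of Thy1 was not tested.

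Ccr6 (chromosome 17: 8236041 to 8258519), the receptor for CCL20 and a gate of the sort, stood at 146 and 63.3 RPKM in control, against 155 and 176 RPKM in Gata3-KO libraries. Control replicate 2 was low and the other 3 libraries lay close together. The 2 control libraries differed 2.30-fold, on 4361 and 1679 reads, and the 2 Gata3-KO libraries 1.14-fold. The log2 difference of 0.77 ± 0.43 did not pass (95% interval −0.27 to 1.81, adjusted p = 0.275 in limma). It was 1.37 with control replicate 1 left out and 0.18 with control replicate 2 left out, and after median-ratio scaling it was 0.19 ± 0.38 with overlapping groups, and −0.33 when control replicate 2 was also left out. The cells of both genotypes were sorted for CCR6 protein, and the part of this gate in the level of Ccr6 was not tested.

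Cxcr5 (chromosome 9: 44511787 to 44526444), the receptor for CXCL13 that LTi cells share with B cells of follicles, stood at 86.6 and 48.5 RPKM in control, against 64.4 and 78.3 RPKM in Gata3-KO libraries. Both Gata3-KO libraries lay between the 2 control libraries. The log2 difference of 0.13 ± 0.35 did not pass (95% interval −0.72 to 0.98, adjusted p = 0.838 in limma), and after median-ratio scaling it turned to −0.45 ± 0.29 (95% interval −1.19 to 0.29). It also turned on the deposited scale without control replicate 2 (−0.28), and was −0.01 without Gata3-KO replicate 2. B cells also carry CCR6 and CXCR5, and 21 of 25 markers of B and plasma cells rose in the same libraries, against 8.35% of all tested genes called higher (3 of 25 after median-ratio scaling). The 25 markers summed to 5667 and 12827 RPKM in control and to 89779 and 41838 RPKM in Gata3-KO libraries. Their part in the levels of Ccr6 and Cxcr5 was not tested.

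**Figure D4:**
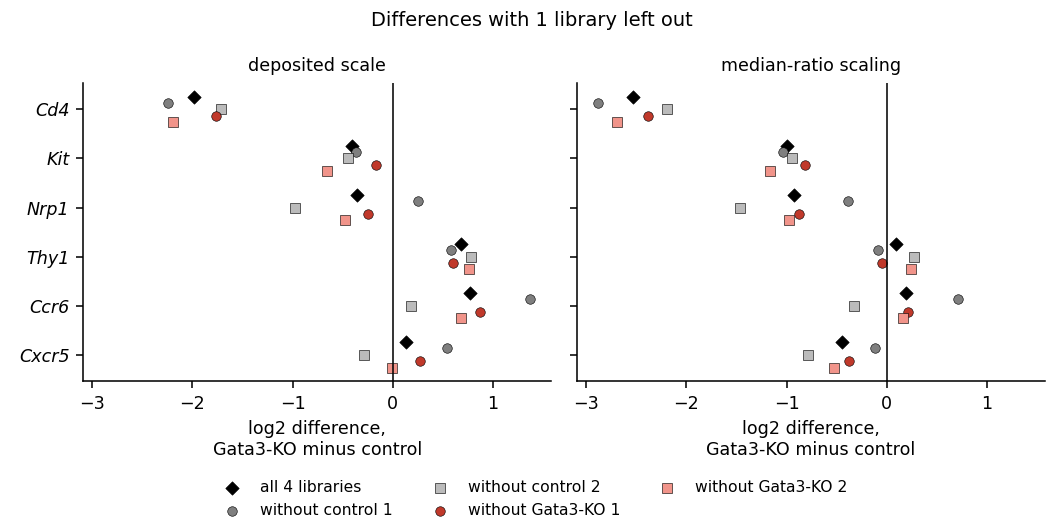
The log2 difference of each member with all 4 libraries (diamonds) and with each library left out, on the deposited scale (left) and after median-ratio scaling (right). Cd4 keeps its sign throughout, between −2.25 and −1.72 on the deposited scale, whereas Nrp1, Ccr6 and Cxcr5 spread most according to which of the control libraries is left out.

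The highest member differed between the genotypes, though neither Kit nor Ccr6 passed the test and CCR6 was a sort gate. In the control libraries Kit was highest, followed by Ccr6 in control replicate 1 and by Thy1 in control replicate 2, and Cd4 was last in replicate 1 and at rank 4 in replicate 2. In both Gata3-KO libraries the order was Ccr6, Thy1, Kit, Cxcr5, Nrp1 and Cd4. The neighbours Ccr6 and Thy1 in that order did not differ beyond their spread, both at 155 RPKM in Gata3-KO replicate 1. Other neighbours were also close. Kit and Ccr6 stood at 154 and 146 RPKM in control replicate 1, and Thy1 and Kit at 138 and 134 RPKM in Gata3-KO replicate 2. The ratio of Kit to Ccr6 was 1.06 and 2.31 in control and 0.615 and 0.760 in Gata3-KO libraries. Of the 6 members, 2 lay lower in both Gata3-KO libraries, 2 lay higher and 2 overlapped on the deposited scale, where 7.58% of all tested genes lay lower and 53.9% higher. After median-ratio scaling 4 lay lower and 2 overlapped, where 25.2% of all tested genes lay lower and 30.1% higher.

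Genes that act with CD4 were mixed. Of 32 genes of CD4 co-receptor signalling and regulation of the Cd4 gene, all tested, 5 rose and 1 fell, where 8.35% of all tested genes were called higher and 0.688% lower, with a median of 0.50 log2 units against 0.43 for all tested genes. The adhesion receptor gene Cd2 rose from 2.32 and 1.93 to 22.4 and 23.0 RPKM (log2 2.93, adjusted p = 0.0111 in limma). Cd247, the zeta chain of the T cell receptor complex, rose by 2.60, and Bcl11b, a transcription factor of T cells and ILC2, by 2.43. Lck, the kinase bound by the tail of CD4, also rose, from 34.8 and 40.5 to 197 and 107 RPKM (log2 1.92, adjusted p = 0.0326 in limma). It is named here after its values were seen. After median-ratio scaling, under which 0.639% of all tested genes were called higher, Cd2 and Cd247 still passed and Bcl11b and Lck did not. A pair of regulators of the Cd4 gene, likewise named after their values were seen, did not pass: Runx3, which acts on the Cd4 silencer, stood at 49.8 and 58.2 RPKM in control, against 47.6 and 55.0 RPKM in Gata3-KO libraries, and Zbtb7b (ThPOK) at 4.17 and 3.44 against 4.02 and 5.41 RPKM.

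Of 11 MHC class II genes, the ligand side of CD4, 6 rose and none fell in limma, with a median of 1.69. The lowest adjusted p belonged to H2-DMb2 (log2 3.60), H2-Ob (3.41) and H2-DMa (2.02), and all 11 lay higher in both Gata3-KO libraries than in both control libraries. Of all tested genes 8.35% were called higher and 53.9% lay higher in this way. After median-ratio scaling only H2-DMb2 passed. LTi cells can present antigen on MHC class II, and so can B cells and dendritic cells, of whose markers 21 of 25 and 6 of 21 rose (3 and 1 after median-ratio scaling), and their part in these levels was not tested. The summed level of the dendritic and myeloid list overlapped between genotypes, at 1082 and 1419 RPKM in control, against 967 and 1975 RPKM in Gata3-KO libraries. Reads of H2-DMb2 and its close copy H2-DMb1 may have been divided between them.

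Of 40 tested genes of KIT signalling 2 rose and none fell in limma, where 8.35% of all tested genes were called higher. Their median was 0.38 against 0.43 for all tested genes. The 2 were Btk, a kinase of B and myeloid cells, at 0.773 and 2.09 RPKM in control, against 8.87 and 8.57 RPKM in Gata3-KO libraries, and Plcg1, a phospholipase, at 0.773 and 0.676 against 10.2 and 3.84 RPKM. Kitl, the ligand, had 17 and 0 reads in control and 71 and 83 reads in Gata3-KO libraries. After median-ratio scaling none of the 40 passed in limma.

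Among ligands, co-receptors and relatives of NRP1, 2 of 21 tested genes rose and none fell in limma, a share near the 8.35% of all tested genes called higher, with a median of 0.52 against 0.43 for all tested genes. They were Sema3b, a secreted semaphorin, at 1.14 and 0.62 RPKM in control, against 4.90 and 7.68 RPKM in Gata3-KO libraries, and Plxnb2, a plexin, at 1.58 and 0.891 against 4.94 and 8.59 RPKM. Sema3a had no reads in any library. Neither Sema3b nor Plxnb2 passed after median-ratio scaling.

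Of 30 tested genes of chemokine ligands, related receptors and their signalling, 2 rose and 1 fell, where 8.35% of all tested genes were called higher and 0.688% lower, with a median of 0.49 against 0.43. Rgs2, which shortens G protein signals, fell from 195 and 157 to 74.5 and 61.1 RPKM (log2 −1.36, adjusted p = 0.0396 in limma). Rgs19, of the same family, rose from 5.67 and 8.23 to 21.6 and 25.1 RPKM (log2 1.63), and Plcb3, a phospholipase, rose by 2.93. After median-ratio scaling Rgs2 still passed and the other 2 did not. The CXCR5 ligand gene Cxcl13 and the CCR7 ligand genes Ccl19 and Ccl21a had no reads in any library, and a floor of 3 reads corresponds to 0.123 to 0.237 CPM. Ccl20, the CCR6 ligand gene, had 31 and 39 reads in control and 71 and 229 reads in Gata3-KO libraries and did not pass (adjusted p = 0.314 in limma).

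Of 24 tested genes of GPI-anchored surface proteins and integrins named with THY1, 5 rose and none fell in limma, against 8.35% of all tested genes called higher, with a median of 0.98 against 0.43. They include Ly6d, a protein of the early B lineage (log2 4.99), Ly6c2, a protein of monocytes and some T cells (3.53), and Ly6a, which is Sca-1 (2.38), and after median-ratio scaling only Ly6d passed. Of 34 other surface proteins of LTi cells 2 rose and none fell in limma, where 8.35% of all tested genes were called higher, with a median of 0.19 against 0.43. Tnfsf4, which is OX40 ligand, was among the 2 that rose, at 2.52 and 1.62 RPKM in control, against 22.3 and 8.32 RPKM in Gata3-KO libraries. None of the 34 passed in limma after median-ratio scaling, under which 17 of the 34 lay lower in both Gata3-KO libraries, against 25.2% of all tested genes. Of 18 LTi transcription factors and effector genes, 1 rose (Il17a) and 1 fell (Il22) on both scales, with a median of −0.20 against 0.43 for all tested genes. Of all tested genes 8.35% were called higher and 0.688% lower on the deposited scale.

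Markers of other cell types were compared in the same way. On the deposited scale 14 of 22 tested markers of epithelium and nerve rose, against 8.35% of all tested genes (6 of 22 and 0.639% after median-ratio scaling), with summed levels of 1555 to 1670.4 RPKM in control and 4434 to 6994 RPKM in Gata3-KO libraries. Of 17 tested genes of ILC2, NKp46+ or NK cells 1 rose and 4 fell, against 0.688% of all tested genes called lower (none and 2 in limma after median-ratio scaling). The summed levels of this list overlapped on the deposited scale, at 406 and 383 RPKM in control, against 401 and 222 RPKM in Gata3-KO libraries. After median-ratio scaling both Gata3-KO sums lay below both control sums. Of 18 tested genes of endothelium and stroma, where NRP1 is also made, none rose and 1, Eng, fell in limma. Of all tested genes 0.688% were called lower (1 of 18 and 0.435% after median-ratio scaling). The summed levels of this list were 101 to 140.4 RPKM in control and 49.3 to 81.6 RPKM in Gata3-KO libraries. T cells can carry CD4, and their summed markers were higher in the Gata3-KO libraries, in which Cd4 was lower, and their part in its level was not tested. The 10 LTi markers, Kit and Ccr6 among them, summed to 2750.5 to 4123 RPKM in control and to 1279 to 1674 RPKM in Gata3-KO libraries. They went both ways: 5 lay lower and 2 higher in both Gata3-KO libraries on the deposited scale, against 7.58% and 53.9% of all tested genes. After median-ratio scaling 8 lay lower and none higher, against 25.2% and 30.1% of all tested genes. Il22, the interleukin 22 gene, was the 1 marker among them that passed, and stood at 2401 and 1520.0 RPKM in control, against 129 and 287 RPKM in Gata3-KO libraries. With Il22 left out, the summed LTi markers overlapped between genotypes on the deposited scale only. After median-ratio scaling both Gata3-KO sums without Il22 lay below both control sums.

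**Figure D5:**
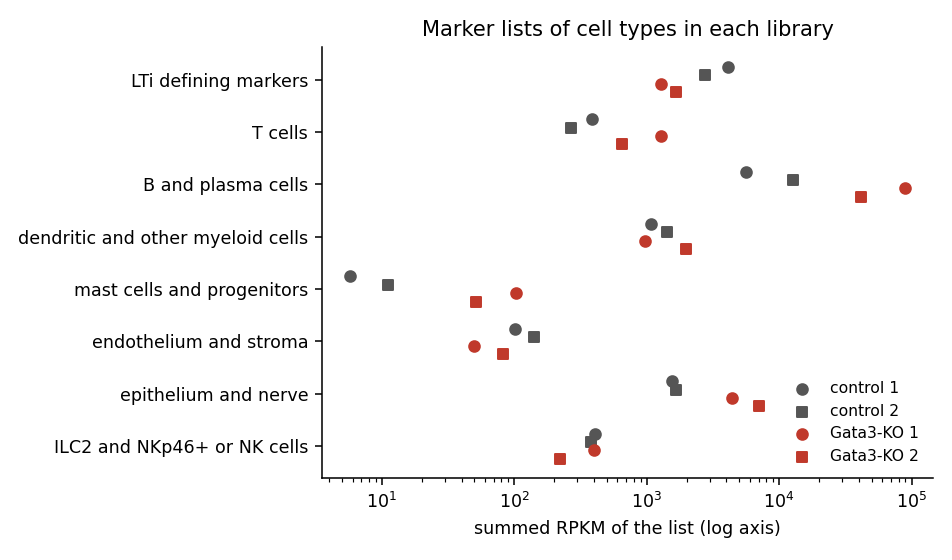
Summed RPKM (log axis) of each list of cell type markers, with a point for each library. The B and plasma cell list is highest in the Gata3-KO libraries, at 89779 and 41838 RPKM, and the T cell and epithelial lists are higher there as well. All sums are on the deposited scale. The LTi list, of which Il22 is part, is lower. With Il22 left out its sums overlap between genotypes on this scale, but not after median-ratio scaling.

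Genes most like each member were ranked by the root mean square distance between log2(RPKM + 1) values centred on their mean over the 4 libraries, among 4233 genes, as a description without a test. Nearest to Cd4 were Rsad1 (distance 0.20), at 26.4 and 27.2 RPKM in control, against 5.69 and 8.62 RPKM in Gata3-KO libraries, Trf (transferrin, 0.23) and Arrdc4 (an arrestin-like protein, 0.26). The nearest other member was Kit at 0.81, and 281 genes were nearer to Cd4 than Kit was. Nearest to Kit were Rap1b, Tecpr1 and Il4ra (0.04 to 0.05), the last a chain of the interleukin 4 receptor, at 315 and 288 against 177 and 262 RPKM. Nearest to Nrp1 was Rrad (0.03), a small GTPase, which like Nrp1 was high in control replicate 1, at 1009 RPKM, and at 451, 494 and 578 RPKM in the others, followed by Ints12 and Cenpl. Nearest to Thy1 were Selplg (PSGL-1, a ligand of selectins), Smpdl3a and Cabin1, each at 0.03. Nearest to Ccr6 were Tspan13 (0.03), Ilvbl and Acot8, and nearest to Cxcr5 were Plpbp (0.02), Ensa and Chchd7. The closest pair of members was Nrp1 and Cxcr5, at 0.28, both higher in control replicate 1 than in control replicate 2.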

How the data were processed

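The members and gene lists were chosen with earlier results of these data known. RNA of sorted cells was made into libraries with Smart-seq2, per the labels' protocols, and reads were processed with Subread and featureCounts on mm10, per the submitters' processing notes. No version of either tool is given in the sources used here. What the authors deposited is log2(RPKM + 1) plus 0.0001 per gene, as worked out from the values. Whole reads were recovered from them (99.7% to 99.8% of each library's total) and served for depth, filter and scaling. Library totals and gene lengths are themselves estimates, chosen to make reads whole. Counting errors and floors cover counting error only. Symbols and coordinates came from RefSeq by Entrez identifier.

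Genes with at least 0.523 CPM in 2 libraries and 15 reads in total were tested with limma 3.58.1 (R 4.3.3; trend, robust, two-sided, Benjamini-Hochberg over all 14241 genes, threshold 0.05). On simulated data for this comparison (14241 genes, 200 changed in each of 5 draws) it called 15.2% of genes changed 2-fold and 86.8% of those changed 4-fold, with 6.33% false calls. The simulation gave every gene the same dispersion (0.0535) and had no shift of the typical gene. The real libraries have such a shift, so these shares may not hold for the real calls. Alternatives were other scalings, filters, pseudocount, limma-voom, a replicate block and left-out libraries. Named genes were the members, Gata3, up to 3 called genes per list and direction, and the 3 genes most like each member. Not every gene the rule picks is printed, and some genes counted in the lists are not reported here by name. Cxcl13, Ccl19, Ccl21a, Sema3a, Ccl20, Kitl, Lck, Runx3, Zbtb7b and the mast cell genes at 0 were named after their values were seen. So were Mcpt1, Mcpt2, Gata2 and Epx. Python 3.11.15 was used for the other steps.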

Additional observations from a re-analysis of the deposited data

How the results depend on the processing

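The 2 libraries per genotype limit every comparison. Cd4 kept its direction under every alternative run, passed with upper-quartile scaling, the stricter filter, a pseudocount of 0.1, limma-voom on either scale and a replicate block, and did not pass without a filter (−1.98) or with the block and median-ratio scaling (−2.54). With 1 library left out its difference ran from −2.25 to −1.72 (−2.88 to −2.19 with median-ratio scaling, −2.38 and −2.69 without Gata3-KO replicates 1 and 2) and it did not pass (adjusted p of 0.0587 to 0.407 in limma). In these fits the lone library of a genotype is assumed to vary like the other group. No other member passed under any alternative. Cxcr5 changed sign with median-ratio scaling (−0.45), upper-quartile scaling (−0.51), limma-voom with median-ratio scaling (−0.46) and the block with median-ratio scaling (−0.45). Leaving out 1 library gave −0.98 to 0.25 for Nrp1 (−1.47 to −0.38 with median-ratio scaling), −0.28 to 0.54 for Cxcr5 (−0.78 to −0.12, −0.52 without Gata3-KO replicate 2), 0.18 to 1.37 for Ccr6 (−0.33 to 0.71), 0.58 to 0.78 for Thy1 (−0.0836 to 0.28, −0.0514 without Gata3-KO replicate 1) and −0.65 to −0.16 for Kit (−1.17 to −0.82).

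Across all genes limma called 1287 on the deposited scale, 1189 of them higher. Median-ratio scaling gave 153 calls (91 higher, 62 lower), upper-quartile scaling 146 (82, 64), a pseudocount of 0.1 gave 857, limma-voom 285, its combination with median-ratio scaling 90 (27, 63), the replicate block with median-ratio scaling 18 and testing without a filter 0 (4336 at an unadjusted p under 0.05). Leaving out 1 library left 0 calls on the deposited scale in limma (2426 to 3816 at an unadjusted p under 0.05). With median-ratio scaling it left 8 calls without control replicate 1, 85 without control replicate 2 and 0 without either Gata3-KO library (1603 and 1694 at an unadjusted p under 0.05). Same-numbered libraries did not deviate together (correlation −0.02 across genes). With 2 libraries per genotype this cannot exclude that the numbers pair the libraries. The replicate block gave 1045 calls on the deposited scale, with Cd4 still called (adjusted p = 0.026 in limma).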
